A study of Mus musculus with 4 samples.

Results

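The 45 mouse genes whose symbols begin with Kdm, Hdac or Setd, or with Sirt and a digit, were examined for Runx3 binding in splenic CD4+ DC. They were taken by symbol from the 22225 protein-coding genes of GENCODE M1 on mm9, and comprise 16 Kdm demethylases, 11 Hdac deacetylases, 7 sirtuins and 11 genes named for a SET domain. A Runx3 peak was assigned to a gene when its centre lay in the gene body or within 10 kb of a transcription start site (TSS) of any of its transcripts. Of the 15121 peaks, 58 were assigned in this way, each to 1 of the 45 genes only.

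ChIP-seq was done on CD11chiMHCII+CD4+ conventional DC sorted from spleens of WT mice, whose age and sex are not stated here. Each of the 4 samples is labelled as collected from about 15 mice, without saying whether samples shared mice. Fragmented chromatin was precipitated with a polyclonal anti-Runx3 antibody made in the authors' laboratory in 2 biological replicates, and 2 input samples of whole cell extract served as control. The labels give the strain as C57BL/6, except for input 2, which is labelled C57BL/7. The file analysed here is a single MACS2 peak list for both replicates together, so no peak in it has a value per sample, no spread between replicates can be given, and no difference was tested. The score of a peak is the number MACS2 wrote, in an unstated unit, and served here to rank peaks within the list. The identity of the sorted cells was not checked, since a list of bound regions holds no expression values.

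Histone-modifying enzymes set and remove the marks that accompany open and silent chromatin. Deacetylases of the Hdac classes use zinc and sirtuins use NAD+ to remove acetyl groups, Kdm enzymes remove methyl groups from histone lysines, and most SET-domain enzymes add them. Runx proteins are DNA-binding factors of haematopoietic cells that recruit co-repressor complexes containing deacetylases to their target genes. The peaks described here lie at the genes that encode such enzymes, and say nothing of whether the enzymes themselves are at Runx3-bound sites.

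A peak was found at 35 of the 45 genes, or 77.8% (63.7% to 87.5%, a Wilson 95% interval of counting error alone), against 40.0% of all protein-coding genes. Their windows had a median length of 53.3 kb, whereas that of all protein-coding genes was 27.8 kb, and longer windows hold a peak more often. Weighting the share of all genes in each quintile of window length by the number of histone-modifying genes in it gave 49.1%. In the middle quintile, with windows of 22.9 to 34.6 kb, all 9 genes had a peak, against 46.0% of all genes. In the longest quintile, 13 of 17 had a peak, against 51.1%. Within the 45 genes, the median window was 51.2 kb for those with a peak and 54.8 kb for those without.

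**Figure D1:**
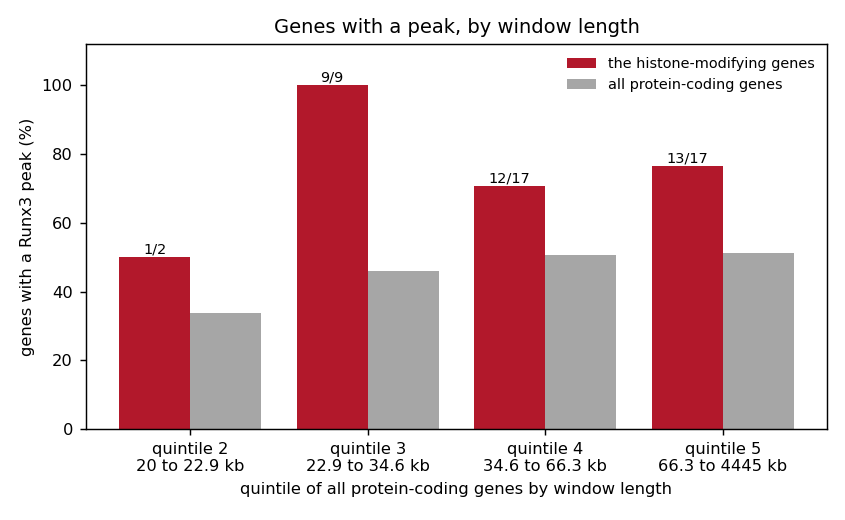
Percentage of genes with a Runx3 peak (vertical axis) by quintile of all protein-coding genes ranked by window length (horizontal axis), for the histone-modifying genes (red, with counts above the bars) and for all protein-coding genes (grey). The shortest quintile holds 0 of the 45 genes and is not drawn; in the other quintiles the red bar is the higher, with 1 of 2, 9 of 9, 12 of 17 and 13 of 17 genes.

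A promoter peak, defined as centred at most 1 kb from any TSS of the gene, was found at 24 genes, or 53.3% (Wilson 95% interval 39.1% to 67.1%), against 25.0% of all protein-coding genes. Promoters rich in CpG were frequent among them. Of the 45 promoters 30 had an observed-to-expected CpG ratio of at least 0.6 and at least 50% GC. This is 66.7%, against 44.3% of all genes. Both values were measured in the 500 bp on either side of the 5′ end of the gene alone. A promoter peak, by contrast, could lie at any TSS of the gene. Of these 30 CpG-rich promoters 20 had a promoter peak, or 66.7%, against 43.2% of all CpG-rich promoters. A peak anywhere in the window was found at 25 of the 30 genes, or 83.3%. Among all genes with CpG-rich promoters, weighted to the same window lengths, the share was 60.9%. Peaks of the upper quartile of the list, with a score of 23.2 or higher, were present at 15 genes, or 33.3%, against 14.0% of all genes. Most bound genes had few peaks, 1 at 23 genes and 2 at 7, and 5 genes (11.1%) had 3 or more, against 6.43% of all genes. The shares of 25.0%, 14.0% and 6.43% were not weighted to the longer windows of the 45 genes. In the quintiles of window length that hold these genes, from shortest to longest, 21.2%, 31.9%, 35.1% and 28.1% of all genes had a promoter peak.

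The scores of the 58 peaks ran from 2.96 to 174, with a median of 12.9 (95% interval from order statistics 9.16 to 19.8) against 12.1 in the whole list, which lies within this interval. Of the 58 peaks 19 (32.8%) had a score of 23.2 or higher, against 25.4% of all peaks. Their median width was 472 bp, against 406 bp.

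**Figure D2:**
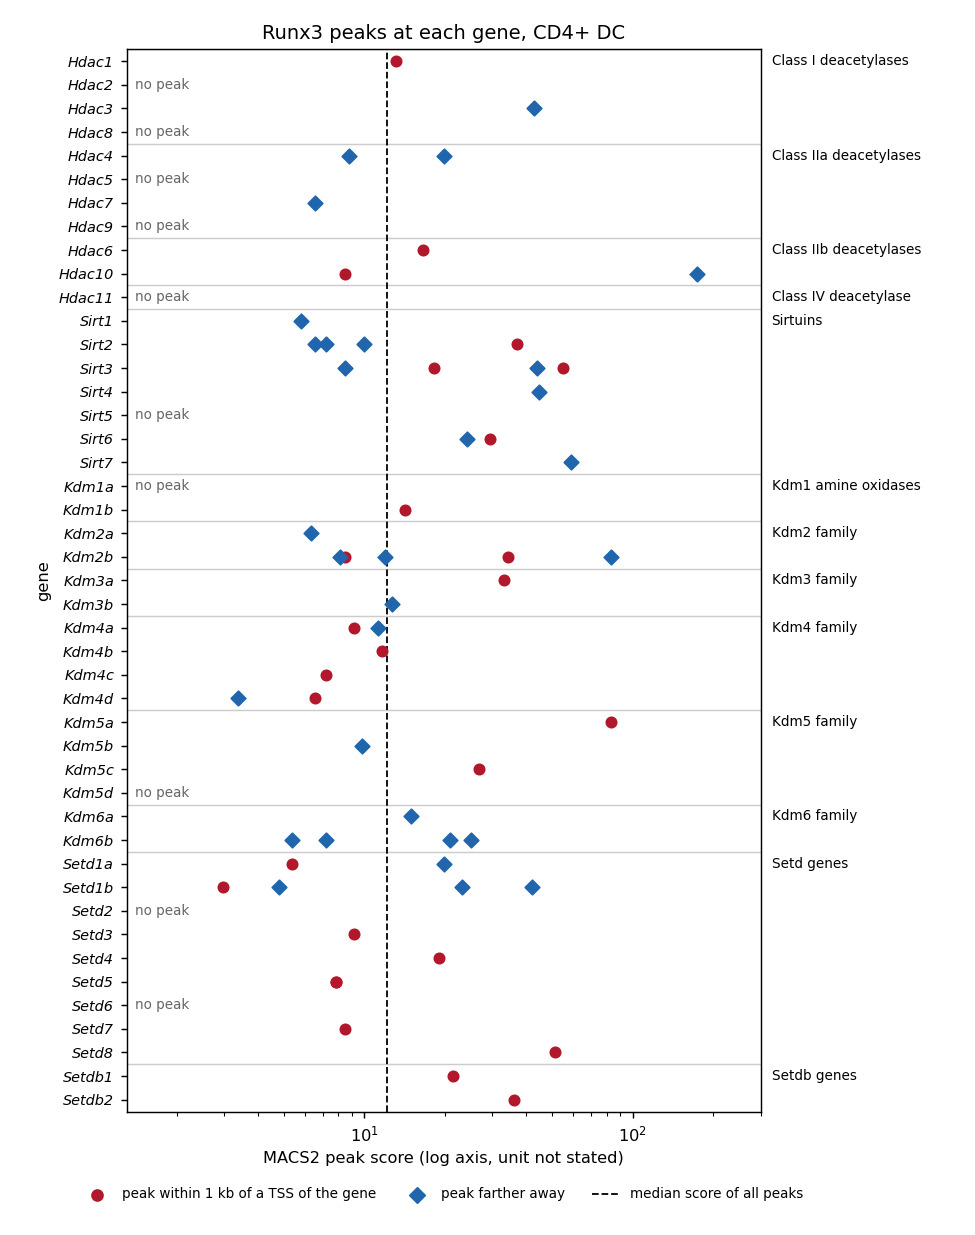
MACS2 score of each Runx3 peak (horizontal axis, log scale) for each of the 45 genes (rows, grouped by enzyme class). Red circles are promoter peaks, centred at most 1 kb from a TSS, blue diamonds are peaks farther away, the dashed line is the median score of all peaks, 12.1, and the 2 peaks of Setd5 have equal scores and overlie. The single peak beyond a score of 100 is that of Hdac10, and 10 genes have no peak.

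Sequence is shown for the strongest peaks that hold the RUNX hexamer outside exons, because these are the sites where the canonical Runx sequence and a high score occur together. The peak of Sirt7, with a score of 59.1, also holds the hexamer and is not printed, since the hexamer lies in an exon of Mafg. Each line gives up to 60 bases of mm9 on either side of the TGTGGT nearest the peak centre, 5′ to 3′ on the strand stated, and the capitals mark TGTGGT or its reverse complement ACCACA.
Hdac10, chr15:88961890-88962015, plus strand: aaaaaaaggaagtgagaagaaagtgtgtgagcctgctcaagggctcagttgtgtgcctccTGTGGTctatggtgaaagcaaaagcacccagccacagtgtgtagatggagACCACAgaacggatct
Kdm2b, chr5:123399320-123399445, minus strand: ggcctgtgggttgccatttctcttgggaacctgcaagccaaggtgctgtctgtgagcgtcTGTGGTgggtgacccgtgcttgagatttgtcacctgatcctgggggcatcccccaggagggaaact
Setd8, chr5:124890164-124890289, plus strand: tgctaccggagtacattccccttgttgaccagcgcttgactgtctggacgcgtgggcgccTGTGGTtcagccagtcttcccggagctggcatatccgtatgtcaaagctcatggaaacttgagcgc
Sirt4, chr5:115939558-115939683, plus strand: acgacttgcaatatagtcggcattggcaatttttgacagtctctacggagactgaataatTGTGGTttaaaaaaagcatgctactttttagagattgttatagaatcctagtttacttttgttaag
Sirt3, chr7:148060177-148060302, minus strand: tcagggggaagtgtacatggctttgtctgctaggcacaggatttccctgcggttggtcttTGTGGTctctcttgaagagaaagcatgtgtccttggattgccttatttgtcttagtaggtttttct

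The Hdac10 sequence lies in the strongest of the 58 peaks, on chromosome 15 from 88961604 to 88962315. It scored 174, which is rank 17 of the whole list, and is centred 2829 bp upstream of the Hdac10 TSS. It holds TGTGGT 2 times, the nearer 6 bp from the centre, and both are in the line above, on opposite strands. Hdac10 (chromosome 15, 88953733 to 88959130, minus strand) encodes a class IIb enzyme that deacetylates polyamines. Its promoter peak, from 88958784 to 88959166, was much weaker, with a score of 8.49. Hdac6, the other class IIb gene, whose enzyme deacetylates tubulin, had a peak 177 bp upstream of its TSS with a score of 16.5.

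Of the 11 Hdac genes 6 had a peak (54.5%), 3 of them at a promoter (27.3%). These shares were near those of all protein-coding genes, which were 49.6% for a peak when weighted to the window lengths of the Hdac genes, and 25.0% for a promoter peak. Among class I genes, most of which encode nuclear catalytic subunits of co-repressor complexes, Hdac1 had a peak over its TSS with a score of 13.2. The peak assigned to Hdac3, on chromosome 18 from 38094891 to 38095457, scored 42.9, but it lies beyond the 3′ end of Hdac3 and 44 bp from a TSS of the neighbouring Diap1. Hdac2 and Hdac8 had no peak. Of the class IIa genes, whose products shuttle between nucleus and cytoplasm, Hdac4 had peaks only in intron 1, with a score of 19.8 for that from 93976789 to 93977149 on chromosome 1 and of 8.74 for the other. Hdac7 had a peak 5103 bp upstream of its TSS with a score of 6.57, and Hdac5 and Hdac9 had none. Hdac11, the only class IV gene, had none either.

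Hdac9 and Hdac10 are both in the study's list of genes whose expression differed between Runx3-/- and Runx3+/+ CD4+ DC. The arrays behind that list were not analysed here, and the direction of change is not given. The share of all protein-coding genes in that list is not given either. Whether the histone-modifying genes are listed more often than other genes was not tested. The binding at Hdac9 and Hdac10 differed widely. Hdac10 had the highest score of the 58 peaks, whereas Hdac9 had no peak in a window of 491 kb and its nearest peak lay 154738 bp from a TSS, with a score of 3.68. The paper assigned peaks with GREAT, and its clustering counted binding much farther from a TSS than the 10 kb used here. The nearest peak of Hdac9 lies within the distance from a TSS that the clustering allowed. Whether the paper's rule assigns that peak to Hdac9 was not examined.

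Of the 7 sirtuin genes 6 had a peak (85.7%, against 46.3% of all genes at their window lengths). A promoter peak was found at 3 (42.9%, against 25.0% of all protein-coding genes). The sirtuin genes had 13 peaks in all, with a median score of 24.1. Their windows were short, with a median of 28.6 kb against 71.3 kb for the Kdm genes. Sirt3 (chromosome 7, 148049569 to 148068208, minus strand), which encodes the main mitochondrial deacetylase, had 4 peaks. The strongest, from 148063192 to 148063661 in intron 3, scored 55.0 and lies 620 bp downstream of the TSS of a shorter transcript. The next, from 148059974 to 148060578 in intron 4, scored 44.2 and holds the sequence printed above. The peak over the main TSS scored 18.1, and another in intron 1 scored 8.49. Sirt4, a mitochondrial enzyme gene, had 1 peak, from 115939386 to 115940334 on chromosome 5, 5126 bp upstream of its TSS, with a score of 45.0. Counting all annotated genes and not only protein-coding ones, the TSS nearest to this peak belongs to U4. The hexamer printed above lies 239 bp from the peak centre.

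Some peaks assigned to Sirt7, Sirt2 and Sirt6 lie nearer to a TSS of a neighbouring gene. The Sirt7 peak, on chromosome 11 from 120489042 to 120489633, scored 59.1 and is centred 2783 bp upstream of Sirt7, a nucleolar deacetylase gene, but 2125 bp from a TSS of Mafg. Sirt2, whose product deacetylates tubulin, had 4 peaks. Its promoter peak, on chromosome 7 from 29551248 to 29551803, scored 37.1 and is centred 229 bp upstream of Sirt2 and 8 bp from a TSS of Nfkbib, an inhibitor of NF-κB, and its other 3 peaks scored below the list median. Sirt6, a chromatin-bound deacetylase gene, had a promoter peak with a score of 29.5, 31 bp from its own TSS, and a peak with a score of 24.1 that is 4 bp from a TSS of Ankrd24. Sirt1 had a single weak peak in intron 1, with a score of 5.81, and Sirt5 had none.

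The Kdm genes were bound in 14 of 16 cases (87.5%, against 50.6% of all genes at their window lengths). A promoter peak was found at 9 of them (56.2%, against 25.0% of all protein-coding genes). Most Kdm promoters were CpG-rich, and of all CpG-rich promoters 43.2% had a promoter peak. The Kdm genes had 23 peaks with a median score of 11.7. Kdm2b (chromosome 5, 123320677 to 123465089, minus strand) encodes a demethylase that binds unmethylated CpG and brings a Polycomb complex to CpG islands. It had 5 peaks, the most of the 45 genes. The strongest, from 123398994 to 123399872 in intron 6, scored 83.4, lies 1430 bp upstream of an internal TSS and holds TGTGGT 3 times. The peak at the upstream promoter scored 34.2 and is 185 bp from the TSS of Orai1, a calcium channel gene, and 191 bp from that of Kdm2b. The other 3 peaks of Kdm2b scored 12.0, 8.49 and 8.13. Kdm2a, its paralogue, had only an intronic peak with a score of 6.32.

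Kdm5a (chromosome 6, 120314117 to 120394592, plus strand), a demethylase gene for methylated lysine 4 of histone H3, had the strongest promoter peak. It runs from 120313700 to 120314658, is centred 29 bp from a TSS and scored 83.4, equal to the strongest peak of Kdm2b. It holds no TGTGGT in its 959 bp, but holds TGCGGT 1 time. Kdm5c on chromosome X had a promoter peak with a score of 26.7, 18 bp from a TSS and with TGTGGT 2 bp from its centre. Kdm5b had a peak 3087 bp upstream with a score of 9.84. Kdm5d on chromosome Y had none, and the list holds 0 peaks on that chromosome. On chromosome X, where 14.5% of protein-coding genes had a peak, Kdm5c, Kdm6a and Hdac6 were bound and Hdac8 was not.

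The Kdm6 genes encode demethylases of lysine 27 of histone H3, the mark laid down by Polycomb, and neither had a promoter peak. Kdm6b, the inflammation-induced member, had 2 peaks in intron 1, with scores of 24.9 and 20.9, at 2676 and 3865 bp from its TSS, the stronger on chromosome 11 from 69224043 to 69224959. Its other 2 peaks, with scores of 7.20 and 5.36, lie beyond its 3′ end, at 58 and 19 bp from TSSs of Lsmd1. Kdm6a had 1 peak in intron 9 with a score of 15.0. All 4 Kdm4 genes, for demethylases of lysine 9 of histone H3, had a promoter peak, yet all 6 of their peaks fell below the list median. Their scores ran from 3.39 to 11.7, the highest at Kdm4b on chromosome 17 from 56464916 to 56465419. Kdm3a, a lysine 9 demethylase gene, had a promoter peak on chromosome 6 from 71582886 to 71583668 with a score of 33.2, and Kdm3b a peak with a score of 12.7 that is centred 1030 bp downstream of its TSS, just past the promoter limit. Kdm1b had a promoter peak on chromosome 13 from 47138466 to 47138941 with a score of 14.2 that lies 9 bp from a TSS of Tpmt, whereas Kdm1a, which encodes the demethylase LSD1, had no peak.

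**Figure D3:**
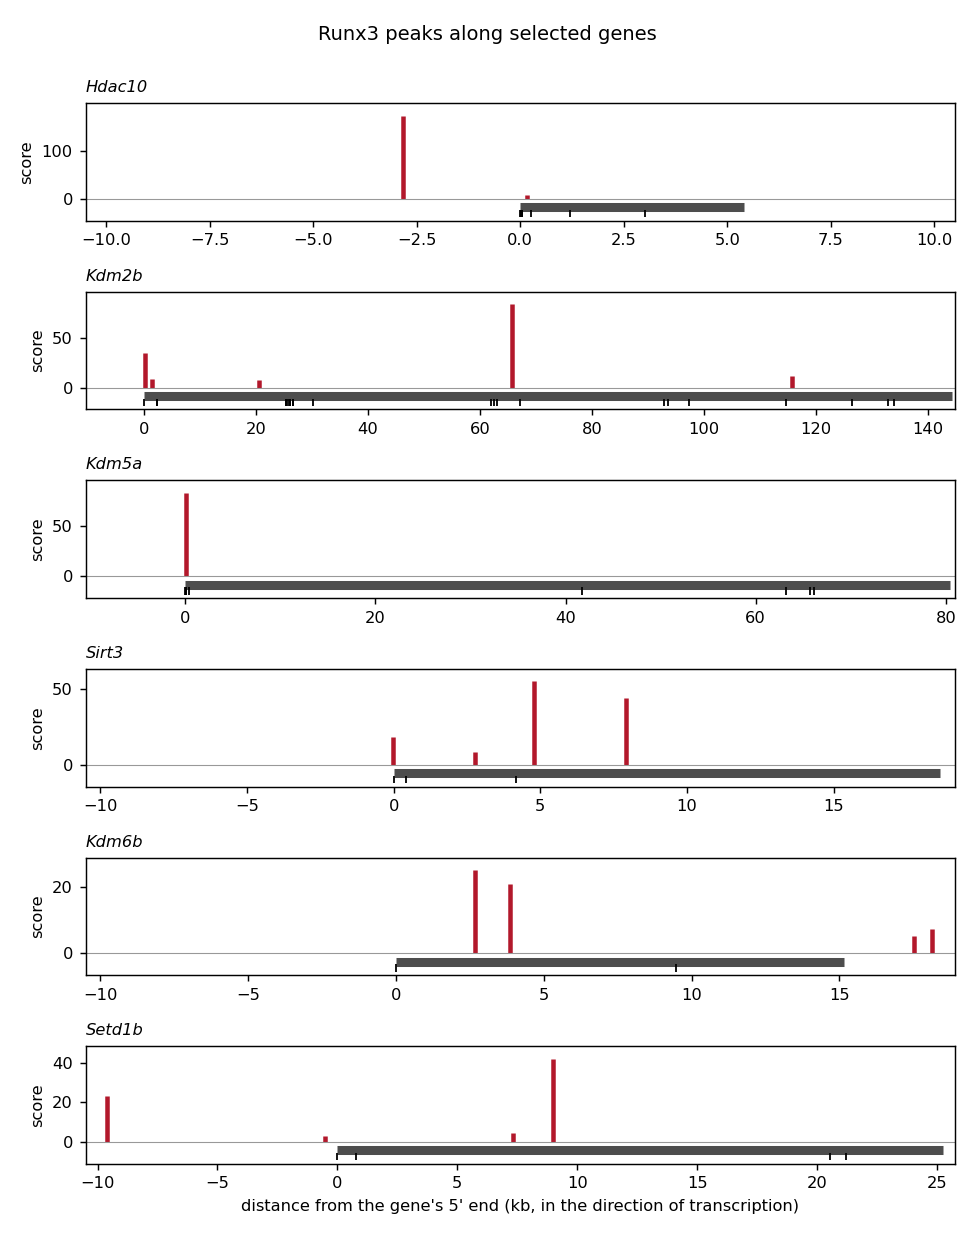
Runx3 peaks along Hdac10, Kdm2b, Kdm5a, Sirt3, Kdm6b and Setd1b, each panel on its own scale. The horizontal axis is the distance from the 5′ end of the gene in kb in the direction of transcription, the vertical axis is the MACS2 score, red bars stand at peak centres, the dark bar is the gene body and the ticks below it are annotated TSSs. The tallest bar lies upstream of Hdac10, inside Kdm2b, Sirt3, Kdm6b and Setd1b, and at the 5′ end of Kdm5a.

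Of the 11 SET-domain genes 9 had a peak (81.8%, against 48.4% of all genes at their window lengths), and all 9 had one at a promoter. All 11 promoters were CpG-rich, and the promoter share of 81.8% stands against 43.2% of all CpG-rich promoters. Among all protein-coding genes it was 25.0%. Setd8 (chromosome 5, 124889939 to 124912317, plus strand), the gene of the enzyme that places a single methyl group on histone H4, had the strongest of these promoter peaks. That peak runs from 124889473 to 124890308, lies 49 bp from a TSS and scored 51.5, and its single TGTGGT lies 337 bp from the centre. Setdb2 and Setdb1, of which Setdb1 silences repeats by methylating lysine 9 of histone H3, had promoter peaks with scores of 36.1 and 21.5. The Setdb2 peak, on chromosome 14 from 60059607 to 60060207, is 84 bp from a TSS of Cab39l and 186 bp from one of Setdb2. Setd1b, a gene for a methyltransferase of lysine 4 of histone H3, had 4 peaks. The strongest, from 123600903 to 123601467 in intron 6, scored 42.1, whereas its promoter peak scored 2.96, the lowest of the 58. Another Setd1b peak, with a score of 23.2, lies 93 bp from a TSS of Rhof.

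Setd1a, the paralogue of Setd1b, had a promoter peak with a score of 5.36 and a peak with a score of 19.8 that lies 126 bp from a TSS of Orai3. Promoter peaks at Setd4, Setd3 and Setd7 scored 18.9, 9.16 and 8.49, and the 2 peaks upstream of Setd5 scored 7.84 each. Counting all annotated genes, the TSS nearest to both Setd5 peaks is that of Gt(ROSA)26Sor. Setd2, the gene of the enzyme that trimethylates lysine 36 of histone H3, and Setd6 had no peak.

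For the 10 genes without a peak, the nearest peak lay 15077 bp from a TSS at Hdac5, 24057 bp at Kdm1a, 43247 bp at Setd2, 44749 bp at Hdac11, 61243 bp at Sirt5 and 78104 bp at Setd6. It lay 154738 bp away at Hdac9, 191959 bp at Hdac2 and 347621 bp at Hdac8, and Kdm5d had no peak on its chromosome. Where no peak is listed, weaker binding may have gone undetected at this depth. At the limit of 10 kb, the farthest peak counted outside a gene body was 9594 bp upstream of Setd1b, with a score of 23.2, and the nearest left out was 10397 bp upstream of Kdm2b, with a score of 7.20. The counted peak lies 93 bp from a TSS of Rhof.

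Of the 58 peaks 27 lay within 1 kb of a TSS of their gene, 27 between 1 and 10 kb away and 4 deeper inside the gene body. The promoter peaks clustered closely around the TSS, with 16 peaks centred within 200 bp and 18 covering a TSS. The peaks beyond 1 kb comprised 17 in introns, 8 of them in intron 1, 1 in an exon, 10 upstream and 3 downstream of the longest coding transcript. The median score was 14.2 within 1 kb and 12.0 beyond. For 15 peaks the nearest TSS of a protein-coding gene belonged to another gene, and 30 of the 45 genes were bound when these peaks were left out. The share of all protein-coding genes bound under that stricter rule is not given here. Of the 15 peaks, 5 lay within 1 kb of a TSS of the member as well, at Sirt2, Setdb2, Kdm2b, Kdm1b and Kdm4d, where Cwc15 is the neighbour of Kdm4d. A further 7 lay within 1 kb of the other gene alone. From peak position alone, binding at such a shared promoter cannot be told apart between the neighbours.

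**Figure D4:**
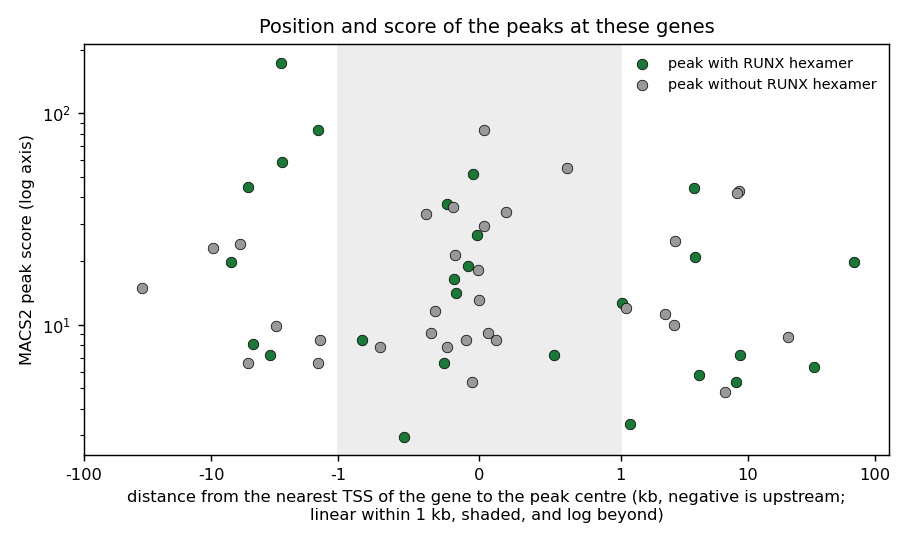
MACS2 score (vertical axis, log scale) of the 58 peaks against the distance from the nearest TSS of the gene to the peak centre in kb (horizontal axis, negative upstream, linear within 1 kb, shaded, and log beyond). Green points hold TGTGGT and grey points do not; the highest point, Hdac10, and several other peaks upstream of the shaded area are green, and green and grey points are mixed within it.

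On either strand, TGTGGT occurred in 26 of the 58 peaks, which is 44.8% (interval 32.7% to 57.5%), while 54.0% of all peaks held it. Windows of equal width 10 kb downstream held it in 29.3%. Counted in the central 200 bp alone, it was present in 27.6% of the peaks at these genes (interval 17.8% to 40.2%) and in 41.8% of the whole list. The median score was 15.4 for peaks with TGTGGT and 11.8 for peaks without it, and in the whole list 14.2 and 10.5. Shares depended on position. Of the 34 peaks at these genes within 1 kb of the TSS of any protein-coding gene 38.2% held TGTGGT, against 33.6% of all such peaks, and of the 24 farther peaks 54.2% did, against 65.7%. Both shares of all peaks lie within the Wilson intervals of the peaks at these genes, 23.9% to 55.0% and 35.1% to 72.1%.

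Other hexamers were counted in the same peaks. The variant TGCGGT was in 38.2% of the 34 promoter peaks, against 30.1% of all promoter peaks. The GC box core GGGCGG, which binds Sp1-type factors, was in 76.5% of them, against 65.7%. The core CCGGAA of ETS factor sites was in 35.3%, against 37.6%, and TGACGT, the core of CRE-type sites, was in 11.8%, against 17.1%. For these 4 hexamers the share of all promoter peaks lies within the Wilson interval of the 34. In the 24 peaks farther away GGGCGG was in 33.3%, or 8 peaks, against 12.3% of all farther peaks, a share below the Wilson 95% interval of the 24. A hexamer match is a description of sequence and not evidence of a bound factor.

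**Figure D5:**
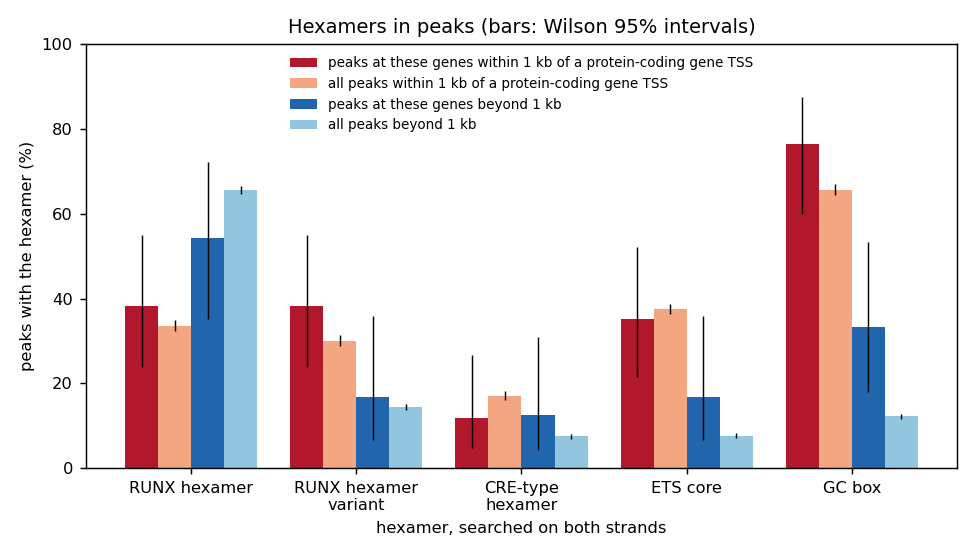
Percentage of peaks with each of 5 hexamers on either strand (vertical axis), for peaks at the histone-modifying genes within 1 kb of a protein-coding gene TSS (dark red, 34 peaks) or farther (dark blue, 24 peaks), and for all peaks in the same positions (light colours). Error bars are Wilson 95% intervals; the RUNX hexamer TGTGGT is the only one of the 5 that is more frequent away from promoters among all peaks.

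Genes for other chromatin enzymes and cofactors were counted in the same way. Of 70 such genes in 4 lists, 45 had a peak (64.3%) and 32 a promoter peak (45.7%), against 77.8% and 53.3% of the 45 histone-modifying genes. Among all protein-coding genes the shares were 40.0% and 25.0%, not weighted to the window lengths or CpG content of the 70 genes. These differences were not tested. The same 40.0% is the share of all genes to set beside the bound genes of each list. Of 22 other histone methyltransferase genes 15 were bound, with the highest score, 93.1, at a peak 1056 bp upstream of Mll5, followed by 59.1 at Dot1l and 37.1 at Whsc1l1. Of 13 other JmjC-domain genes 9 were bound, with 93.1 in intron 1 of Jhdm1d, 55.8 at the promoter of Jmjd6 and 34.2 at that of Jarid2, a Polycomb cofactor. The JmjC-domain genes without a peak were Jmjd4, Uty, Hif1an and Hr. Uty, like Kdm5d, lies on chromosome Y, where the list holds 0 peaks.

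Of 23 genes for subunits of deacetylase complexes 14 were bound. The highest scores were 49.4 upstream of Mta2, a subunit of the NuRD complex, 40.0 upstream of Gatad2a, another NuRD subunit, and 39.0 in intron 14 of Ncor1, the scaffold that activates the Hdac3 enzyme. The Mta2 and Ncor1 peaks hold TGTGGT 4 times each. Of 12 acetyltransferase genes 7 were bound, with 69.6 at the promoter of Hat1, 23.4 at Myst2 and 15.7 at Myst4, and those without a peak were Crebbp, Kat2a, Kat5, Myst1 and Myst3.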

How the data were processed

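ChIP-seq of Runx3 in sorted splenic CD4+ DC comprised 2 Runx3 IP and 2 input samples. Uniquely aligned 50 bp reads (bowtie, mm9) were pooled by the authors, and peaks were detected with MACS2. The deposited list gives a start, an end and a score for each peak, and the unit of the score, the version of MACS2 and the threshold are not given in the sources used here. The number of reads per sample was not analysed here. Positions are on mm9 and counted from 1, sequence was read from NCBIM37, which is that assembly, and gene models were those of GENCODE M1. The 2 annotated records of Hdac4 were joined, as were all records of 1 symbol on 1 chromosome. Intron and exon numbers refer to the coding transcript with the longest exonic sequence. Shares carry Wilson 95% intervals, which treat peaks or genes as independent.

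The genes, the 4 lists of other chromatin genes and the alternatives were chosen with earlier results of these data known, and separate counts of the TGCGGT variant, the ETS core and the GC box were added after seeing the data. Genes described in full were those with the 10 highest-scoring peaks, the 5 genes with the most peaks, and the best peak of each class, with all others given by score; of each other list, the 3 genes with the highest scores, and the genes without a peak where there were 6 or fewer. Alternatives were stricter scores, joined peaks, other distances and sets of TSSs, any base of the peak, the nearest TSS and GREAT domains. The assignment and hexamer search were tested on simulated data. Scripts ran under Python 3.11.15 with pysam 0.24.0, pandas 2.3.3, scipy 1.17.1, matplotlib 3.10.9 and numpy 2.4.6.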

Additional observations from a re-analysis of the deposited data

How the results depend on the processing

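Stricter scores moved the counts most. When peaks below the list median were dropped, 30 peaks were left, 14 genes had a promoter peak and the median score was 28.1. With a score of 23.2 or higher, 15 genes had a peak, 19 peaks were counted, 9 genes had a promoter peak and the median score was 42.1. With the gene body alone, 20 genes and 31 peaks were counted. The share of peaks with TGTGGT was 27.6% in the central 200 bp, 62.1% for TGTGGT or TGCGGT, and 29.3% in downstream windows. The other alternatives kept counts within 1.5 times and other values within their 95% interval. The number of genes with a peak was 34 with GREAT domains and 30 when only peaks nearest to a TSS of the gene were kept. Apart from the 15 genes at a score of 23.2 or higher, no share of all protein-coding genes is given for these alternatives. No paired analysis was possible because the list analysed here pools both replicates, and for the same reason no replicate could be left out.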
